A study of Mus musculus with 4 samples.

Results

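The 752 sites described here are places inside protein-coding genes, away from gene ends, where a peak of accessible chromatin was listed both in Znhit1 knockout and in control pachytene spermatocytes of the mouse. They were chosen by the positions of peaks in the 2 lists and of genes, and each is a separate peak of the knockout list on chromosomes 1 to 19 that overlaps a control peak by at least 1 bp, lies more than 1 kb from both ends of every RefSeq gene of any type, and touches the body of a protein-coding gene. They are 752 of the 20845 autosomal knockout peaks, and 11.2% of the 6717 knockout peaks that met a control peak. The same rule applied to the control list gave 754 of 15241 peaks.

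Open chromatin was mapped by ATAC-seq, a method in which Tn5 transposase inserts adapters where DNA is not packed away. The cells were pachytene spermatocytes of the testis, the meiotic cells whose homologous chromosomes are fully paired. The genotypes are labelled Znhit1_KO and CTRL, with the tag P35 in the sample titles and 2 libraries each; the labels do not state the allele, any Cre driver, the meaning of the tag or the genotype of the controls. The values are 2 peak lists, 1 per genotype, that give positions and no height or score, so no difference has a replicate check, no p-value can be given, and every interval quoted is a Wilson 95% interval for counting error only.

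ZNHIT1 is a subunit of the SRCAP complex, which exchanges canonical H2A for the variant H2A.Z in nucleosomes, often beside transcription start sites. Many mammalian genes have more than 1 promoter, and a promoter downstream of the annotated start gives a shorter or differently spliced transcript. Promoters active in many cell types often lie in CpG islands, stretches rich in C, G and the dinucleotide CG that are often accessible, whereas enhancers inside genes are usually poorer in CpG.

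No genome sequence was given, so the sequences shown are windows around RefSeq transcription starts, which run from 250 bases before a start to 50 bases from it on. Of the 735 sites on chromosomes covered by the table of starts, 330 (44.9%, 41.3 to 48.5) overlapped such a window by at least 1 bp. Throughout, a peak said to overlap a start or to lie at one overlapped its window, and need not cover the start itself. Of these windows, 7 are printed because they belong to genes with known work in germ cells or chromatin. Capitals mark matches, on either strand, to GGGCGG (bound by SP and KLF factors; CCGCCC on the other strand), CCGGAAG (ETS factors), GCGCATGCG (NRF1), CACGTG (the E-box), and AGGGGGC with its variant AGGTGGC (part of the CTCF core). The CTCF letters can overlap the SP and KLF letters, as they do near the beginning of the first Dnmt1 window. A match is a description of the letters, not a bound site. Each window is given 5′ to 3′ on the strand of its gene, from RefSeq, build GRCm38.p6 (its main chromosomes equal mm10).
Dnmt1, chr9:20952574-20952873 (-): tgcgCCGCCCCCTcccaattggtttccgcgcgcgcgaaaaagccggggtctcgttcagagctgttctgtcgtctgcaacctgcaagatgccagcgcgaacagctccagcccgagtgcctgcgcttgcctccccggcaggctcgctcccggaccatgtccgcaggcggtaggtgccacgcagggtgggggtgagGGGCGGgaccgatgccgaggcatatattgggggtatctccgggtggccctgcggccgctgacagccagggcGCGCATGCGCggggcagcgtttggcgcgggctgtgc
Dnmt1, chr9:20952930-20953229 (-): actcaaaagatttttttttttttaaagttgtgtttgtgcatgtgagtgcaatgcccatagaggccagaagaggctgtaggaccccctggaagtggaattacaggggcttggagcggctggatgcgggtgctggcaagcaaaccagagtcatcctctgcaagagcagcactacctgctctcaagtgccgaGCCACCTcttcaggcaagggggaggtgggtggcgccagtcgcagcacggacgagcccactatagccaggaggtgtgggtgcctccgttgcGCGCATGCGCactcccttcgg
Tdrd7, chr4:45972047-45972346 (+): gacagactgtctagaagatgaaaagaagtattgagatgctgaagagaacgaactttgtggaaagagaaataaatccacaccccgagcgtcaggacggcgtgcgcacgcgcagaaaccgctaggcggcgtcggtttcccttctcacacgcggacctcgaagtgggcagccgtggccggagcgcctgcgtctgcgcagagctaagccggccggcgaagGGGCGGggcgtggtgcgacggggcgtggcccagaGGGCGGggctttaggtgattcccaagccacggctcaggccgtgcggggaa
Sgo2a, chr1:57995724-57996023 (+): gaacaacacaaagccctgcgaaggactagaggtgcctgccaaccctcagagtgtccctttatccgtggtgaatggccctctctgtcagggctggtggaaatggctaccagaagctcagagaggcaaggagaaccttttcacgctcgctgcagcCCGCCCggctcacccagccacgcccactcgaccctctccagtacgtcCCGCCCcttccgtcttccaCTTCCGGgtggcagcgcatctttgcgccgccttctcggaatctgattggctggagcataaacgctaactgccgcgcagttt
Mga, chr2:119896978-119897277 (+): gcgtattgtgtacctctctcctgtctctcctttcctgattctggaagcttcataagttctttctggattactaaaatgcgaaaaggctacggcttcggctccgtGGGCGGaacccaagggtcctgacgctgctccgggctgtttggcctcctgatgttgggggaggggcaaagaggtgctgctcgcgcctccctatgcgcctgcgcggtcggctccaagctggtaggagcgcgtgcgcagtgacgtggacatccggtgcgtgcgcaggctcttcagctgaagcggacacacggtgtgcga
Stag1, chr9:100643198-100643497 (+): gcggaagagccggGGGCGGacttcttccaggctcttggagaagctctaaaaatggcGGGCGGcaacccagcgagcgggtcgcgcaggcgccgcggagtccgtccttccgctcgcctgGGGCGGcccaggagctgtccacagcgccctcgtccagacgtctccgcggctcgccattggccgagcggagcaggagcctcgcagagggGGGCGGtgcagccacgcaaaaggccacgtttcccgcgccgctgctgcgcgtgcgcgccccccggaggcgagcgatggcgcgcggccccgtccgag
Kat5, chr19:5610045-5610344 (-): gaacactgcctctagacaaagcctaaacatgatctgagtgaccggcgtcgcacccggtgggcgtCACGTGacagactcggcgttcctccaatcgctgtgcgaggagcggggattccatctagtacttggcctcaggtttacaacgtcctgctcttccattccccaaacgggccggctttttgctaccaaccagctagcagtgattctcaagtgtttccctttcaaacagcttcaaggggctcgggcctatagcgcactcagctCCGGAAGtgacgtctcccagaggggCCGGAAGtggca

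The 2 Dnmt1 windows differed in base composition. Dnmt1 encodes the maintenance DNA methyltransferase, and in the mouse it is known for alternative first exons used in oocytes, in pachytene spermatocytes and in somatic cells; which of them each printed start serves was not examined. The start at 20952623 had a ratio of observed to expected CpG (CpG ratio) of 0.910, and the start at 20952979 one of 0.500. The other printed windows had ratios of 1.109 (Tdrd7), 0.721 (Sgo2a), 0.894 (Mga), 1.058 (Stag1) and 0.783 (Kat5). Matches to GGGCGG on either strand stood in the windows of Tdrd7, Sgo2a, Mga and Stag1 and in the first Dnmt1 window. The printed Kat5 window held ETS letters and an E-box instead, but another Kat5 window under the same site, not printed, held GGGCGG matches (CpG ratio 0.861).

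Dnmt1 itself carried 2 sites and no peak at either gene end. The knockout list had peaks of 580 bp (chr9:20952136-20952715) and 346 bp (chr9:20952815-20953160), and the control list had 1 peak of 639 bp that met both. Tdrd7, a component of the chromatoid body of germ cells, had a site of 753 bp in the knockout list and 854 bp in the control list, with its centre 7.41 kb inside the gene. Sgo2a, the shugoshin that protects centromeric cohesion in meiosis, had 765 bp in the knockout list and 493 bp in the control list, 10.84 kb inside the gene. All 3 genes had no gene-end peak in either list, where a gene-end peak is one within 1 kb of either annotated end. Their internal site overlapped a RefSeq start of the gene in both genotypes.

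Sites inside genes were shared less often than sites at gene ends. Of the 6600 knockout peaks inside genes and away from ends, 752 (11.4%, 10.6 to 12.2) met a control peak, and of the 4531 such control peaks, 754 (16.6%, 15.6 to 17.8) met a knockout peak. Over all autosomal peaks the background was 32.2% in the knockout list and 44.2% in the control list. Gene-end peaks of the knockout list were shared in 62.8% of 8870, and intergenic ones in 7.37% of 5375. Since overlap chose the members, these shares describe the selection.

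The 2 lists were of unequal length and unknown depth. The knockout list had 21004 separate peaks on 29656 lines and the control list 15376 on 24167. Of the marker genes, 6 of 6 for spermatocytes had gene-end peaks in both lists, and 4 of 4 for spermatogonia and 3 of 3 for spermatids in neither. In longer lists, 7 of 39 genes of spermiogenesis and the flagellum and 1 of 20 of spermatogonia had such peaks in both lists. Longer meiotic lists were incomplete, with 19 of 33 recombination genes and 10 of 18 synaptonemal and axis genes. The counts were 17 of 19 for DNA damage signalling, 16 of 25 for the meiotic divisions and 16 of 24 for the piRNA pathway. Among all coding genes, 30.1% had gene-end peaks in both lists and 54.9% in neither. Of 10 marker genes for Sertoli, Leydig, peritubular cells and macrophages, 9 had no gene-end peak in either list. Acta2, a smooth muscle actin, had one in the knockout list alone, and 0 of the 10 held a member.

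The members were wide peaks. In the knockout list their median width was 549 bp (quartiles 371.5 and 806.2, range 160 to 1989 bp), and in the control list the sites taken by the same rule had a median of 525 bp (quartiles 370 and 763.5, range 150 to 2007 bp). Peaks inside genes listed for 1 genotype alone were narrower, with medians of 275 bp (knockout) and 313 bp (control). A wide peak meets an overlap of at least 1 bp more easily than a narrow one, so this contrast describes the selection. Shared gene-end peaks were wider, at 736 bp in knockout cells and 694 bp in control cells. Shared intergenic peaks were narrower than the members and wider than the peaks of 1 genotype alone, at 400.5 bp (knockout) and 405 bp (control). Of the members, 84.6% were at least 300 bp wide and 12.4% (93 sites) at least 1000 bp.

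An interval could stand on several lines of a list. In the knockout list 51.3% (47.8 to 54.9) of the members were listed more than once, and in the control list 52.0% (48.4 to 55.5). The shares were higher for shared gene-end peaks (knockout 67.3%, control 69.3%) and lower for shared intergenic peaks (knockout 33.3%, control 37.2%). Among peaks inside genes in 1 list alone the shares were 8.31% in the knockout and 15.4% in the control. Peak callers such as MACS2 may write a line per summit; whether these lines are summits was not tested.

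**Figure D1:**
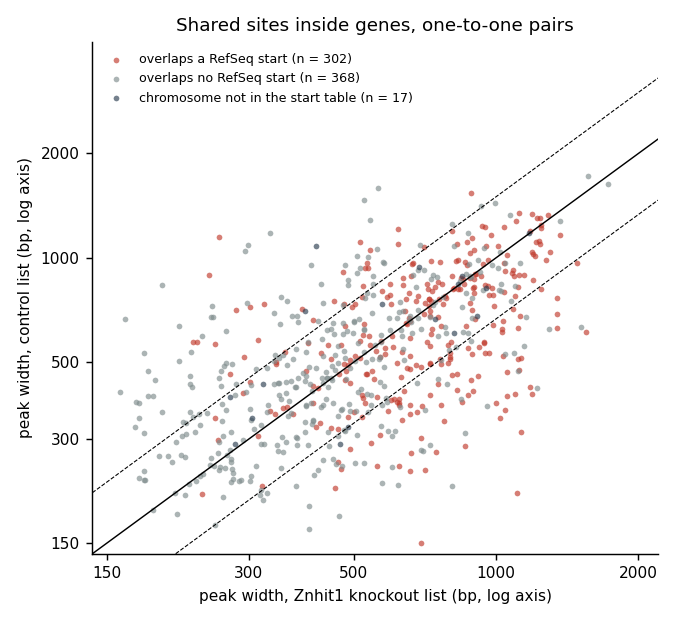
Width of each member in the knockout list (horizontal, bp, log axis) against the width of its control peak (vertical, bp, log axis), for the 687 sites where 1 knockout peak met 1 control peak. Points are sites, the solid line marks equal width and the dashed lines 1.5-fold differences; 132 sites lie beyond the line for wider in the knockout and 101 beyond the one for narrower, with sites at a RefSeq start more often among the wider.

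Over all pairs the widths in the 2 lists differed little in the median, with a wide spread on both sides. Of the members, 687 met exactly 1 control peak that met no other, and over these the log2 ratio of widths, knockout over control, had a median of 0.008 (quartiles -0.36 and 0.43, 95% order-statistic interval -0.018 to 0.043). At least 1.5-fold wider in the knockout were 132 sites (19.2%, 16.4 to 22.3), against 15.9% of all 6216 one-to-one shared peaks. At least 1.5-fold narrower were 101 sites (14.7%, 12.2 to 17.5), against 11.7% of all. The background, which contains the members, had intervals of 15.0 to 16.8 for wider and 10.9 to 12.5 for narrower, and these overlap the members' intervals. Without replicates, the share of such differences that 2 lists of the same genotype would give is unknown.

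The peaks of a pair seldom had the same borders. Their centres lay a median of 79 bp apart (84.5 bp over all shared pairs), and 77.1% (73.9 to 80.1) of the pairs overlapped by at least 50% of both peaks, against 84.7% of all pairs. The knockout peak lay wholly within the control peak in 22.4% of the members, and the control peak within the knockout peak in 26.2%. The other 65 members did not pair one to one: 16 met several control peaks, and 38 shared 19 control peaks between them.

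The widest members came from genes of varied function. The widest in the knockout list was in Mllt10, which encodes a partner of the histone methyltransferase DOT1L: a peak of 1989 bp met 3 control peaks that summed to 1302 bp. In Pan3, a subunit of a poly(A) nuclease, a knockout peak of 1658 bp met 2 control peaks that summed to 1112 bp, and in Ipo5, a nuclear import receptor, one of 1536 bp met 2 that summed to 1468 bp. All 3 overlapped a RefSeq start. Myo3a, a myosin, had 1723 bp in knockout cells and 1632 bp in control cells far from its start, at 92.6% of the gene's length.

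The 10 widest were ranked by knockout width, which by itself favours pairs that are wider in the knockout, so their ratios are a description. Stag1, a cohesin subunit, had 1548 bp in knockout cells and 609 bp in control cells, a ratio of 2.542. Chd9, a chromodomain remodeller, had 1512 bp in knockout cells and 633 bp in control cells. Mef2a, a MADS-box transcription factor, had 1486 bp in knockout cells and 968 bp in control cells, and Unk, an RNA-binding protein, 1367 bp in knockout cells and 1161 bp in control cells. Muc6, a secreted mucin, had the wider peak in the control, where its knockout peaks of 1451 and 414 bp met 1 control peak of 2007 bp.

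The largest ratios of width came from pairs in which 1 peak was narrow. Triobp, an actin-binding protein, had 1109 bp in knockout cells and 209 bp in control cells (5.306-fold), and Clasp2, which binds microtubule plus ends, had 692 bp in knockout cells and 150 bp in control cells (4.613-fold). Rgmb (3.581-fold) and Rnf126 (3.0-fold) were also among the 5 highest. At the other end, Mxi1, a MAX-binding repressor, had 260 bp in knockout cells and 1150 bp in control cells, a ratio of 0.226, and Clpx, a mitochondrial unfoldase, had 197 bp in knockout cells and 835 bp in control cells. Atpif1, Zfp385a and Mto1 had ratios of 0.246, 0.275 and 0.276. These sites were ranked by the ratio itself, so their size is a description.

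The site listed most often in the knockout list was in Tfap2a, which encodes the transcription factor AP-2 alpha. It stood on 6 lines in the knockout list and 2 in the control list, with widths of 1295 bp in knockout cells and 621 bp in control cells. The Mllt10, Pan3, Ipo5 and wider Muc6 sites had 5 lines each in the knockout list and are the 4 widest of the 8 sites tied at 5 lines. Khdrbs1, Gphn, Xpo4 and Triobp were the other sites with 5 lines in the knockout list. For the first 4, the control peak with the most lines among those met stood on 2, 2, 3 and 7 lines. Mllt10 met 3 control peaks and Pan3 and Ipo5 met 2 each, so their control lines are more in all.

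RefSeq starts were far more frequent at these sites than at other peaks inside genes. In the knockout list 330 of 735 members (44.9%) overlapped a start, against 172 of 5673 knockout-only peaks inside genes (3.03%, 2.62 to 3.51). In the control list 321 of 735 shared sites (43.7%) did, against 64 of 3628 control-only peaks (1.76%). Shared intergenic peaks overlapped a start in 2 of 378 cases (0.529%, 0.145 to 1.91). Their class leaves out gene ends and coding gene bodies, so it could meet only starts inside long noncoding RNA genes. That low share thus follows from the rule of the class and is no comparison. Among peaks whose host gene has a start in the table, the share was 55.5% of 595 members and 3.72% of 4599 knockout-only peaks. Of the 330, 329 lay at a start of their own coding host gene. Gene ends are the outermost in RefSeq, predicted transcripts included, so an internal start may be a gene's main one, and which starts were in use was not measured.

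**Figure D2:**
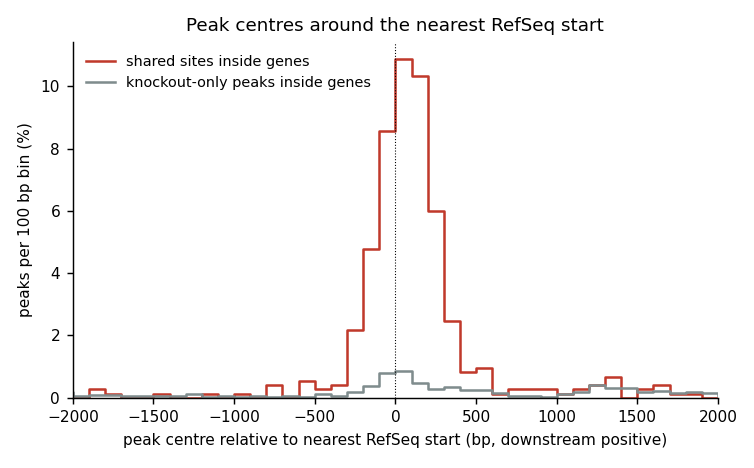
Share of peak centres (vertical, % of peaks per 100 bp bin) by distance from the nearest RefSeq start (horizontal, bp, downstream positive), for the 735 members and the 5673 knockout-only peaks inside genes. The members' centres pile up around the start, where 38.9% lie within 250 bp, against 2.75% of the knockout-only peaks.

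The members' centres clustered at the start and slightly downstream. In 286 of 735 members (38.9%, 35.5 to 42.5) the centre lay within 250 bp of a start, against 156 of 5673 knockout-only peaks (2.75%, 2.36 to 3.21). Over the 330 members that overlapped a start, the centre lay a median of 115.5 bp from it, and the start lay a median of 55 bp upstream of the centre.

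The share differed by width. At 150 bp to under 300 bp, 16 of 114 members (14.0%, 8.83 to 21.6) overlapped a start, against 1.36% of 3371 knockout-only peaks. From 300 bp to under 500 bp the shares were 24.7% of members and 3.47% of knockout-only peaks, and from 500 bp to under 800 bp 55.7% (49.4 to 62.0) and 11.4% (8.58 to 15.1). From 800 bp on, 134 of 188 members (71.3%, 64.4 to 77.3) and 18 of 33 knockout-only peaks (54.5%, 38.0 to 70.2) overlapped a start, with intervals that overlap. In both sets the share was higher in wider peaks, and the part of width in the difference was not tested.

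**Figure D3:**
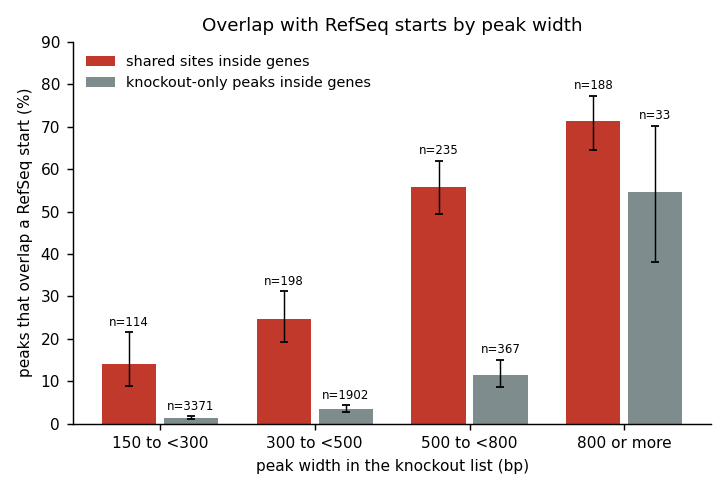
Share of peaks that overlap a RefSeq start (vertical, %) by width in the knockout list (horizontal, bp) for members and for knockout-only peaks inside genes; bars are shares, error bars Wilson 95% intervals, and n is the number of peaks. Members reach 71.3% from 800 bp on, and the intervals of the 2 sets overlap in that class alone.

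Seen from the starts, most internal starts had no peak. The table holds 4249 starts, of coding and of long noncoding RNA genes, whose windows lie more than 1 kb from every gene end. A peak of both lists overlapped 395 of them (9.30%), a peak of the knockout list alone 218 (5.13%), a peak of the control list alone 90 (2.12%), and no peak 3546 (83.5%). For starts within 1 kb of a gene end the share with a peak in both lists was 21.4% of 27147. By type, 388 of 3143 internal coding starts (12.3%, 11.2 to 13.5) and 7 of 1106 internal long noncoding RNA starts (0.633%, 0.307 to 1.30) had a peak in both lists.

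The starts overlapped by members were rich in CpG. These 387 starts had a median CpG ratio of 0.827 and a median GC content of 64.0%, against 0.256 and 49.67% for the internal starts with a peak in neither list and 0.389 and 53.0% for all 31396 starts. A ratio of at least 0.6 was found in 90.2% of the members' starts and in 14.0% of the internal starts without a peak. Of the 3546 internal starts without a peak, 1084 belong to long noncoding RNA genes, whereas 329 of the 330 members at a start lay at a coding one. The part of gene type in these contrasts, and in those of the motif letters below, was not tested. Starts near a gene end with a peak in both lists were close to the members, with a median ratio of 0.859 and 92.0% at or above 0.6.

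**Figure D4:**
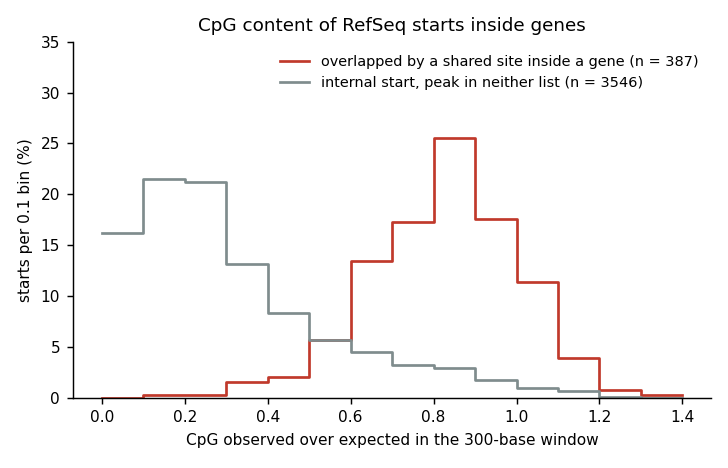
Distribution of the ratio of observed to expected CpG (horizontal) in the 300-base windows of RefSeq starts (vertical, % of starts per 0.1 bin), for the 387 starts overlapped by a member and the 3546 internal starts with a peak in neither list. The median is 0.827 at the members' starts and 0.256 at the starts without a peak. Of the latter, 1084 belong to long noncoding RNA genes.

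The motif letters followed the same order. GGGCGG was found on either strand in 73.6% (69.0 to 77.8) of the members' starts, 21.1% of internal starts without a peak, 74.6% of starts near gene ends with a peak in both lists, and 36.0% of all starts. CCGGAAG stood in 20.4% (16.7 to 24.7) of the members' starts and 2.85% of internal starts without a peak (9.00% of all starts), and GCGCATGCG in 5.17% (3.37 to 7.85) and 0.141% (1.74% of all). AAGATGGCG, the letters of YY1, stood in 3.36% of the members' starts and 0.338% of internal starts without a peak, against 1.39% of all. TGACGTCA, the cAMP-response letters, stood in 3.10% of the members' starts and 0.818% of internal starts without a peak (1.83% of all), and CACGTG in 8.79% and 4.65% (7.14% of all). In starts near gene ends with a peak in both lists the shares were 25.3% (CCGGAAG), 6.44% (GCGCATGCG), 4.62% (AAGATGGCG), 4.67% (TGACGTCA) and 12.2% (CACGTG). All 6 of these motifs hold a CG, and the part of CpG content in their counts was not tested.

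Of the letters without a CG, those of CTCF stood in 23.8% of the members' starts, 13.6% of internal starts without a peak and 16.1% of all. Starts near gene ends with a peak in both lists were close to the members, at 23.6%. GGCAGTTG, bound by MYB factors such as the pachytene regulator MYBL1, stood in 5 of the 387 members' starts (1.29%, 0.553 to 2.99) against 1.41% of internal starts without a peak and 1.23% of all starts. GTTGCCATG, of the RFX factors, stood in 4 (1.03%, 0.403 to 2.63), against 0.423% of internal starts without a peak and 0.774% of all. TGACTCA (AP-1) stood in 3.36% of the members' starts and 6.06% of internal starts without a peak (5.26% of all), and AGATAAG, bound by GATA factors, in 0.258% and 3.75% (3.03% of all). At starts near gene ends with a peak in both lists these 4 stood in 0.756% (MYB), 0.704% (RFX), 2.34% (AP-1) and 0.945% (GATA). The part of GC content in the counts of letters without a CG was not tested.

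Sites at a start and sites away from one differed in other measures. Of the 405 away from a start, 140 have a host gene without an entry in the table. The 330 at a start had a median width of 724 bp in the knockout list and the 405 others 437 bp, and the control peaks they met had medians of 648.5 bp and 482 bp. Of those at a start, 70.0% were listed more than once in the knockout list, against 36.3% of the others, and the part of width in this was not tested. Those at a start lay a median of 4.835 kb inside their host gene, against 17.56 kb for the 265 others whose host strand is known.

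The ratio of widths also differed between these classes. Of 302 one-to-one sites whose knockout peak overlapped a start, 79 (26.2%, 21.5 to 31.4) were at least 1.5-fold wider in the knockout and 26 (8.61%, 5.94 to 12.3) at least 1.5-fold narrower. Of the 368 whose knockout peak did not, 52 (14.1%, 10.9 to 18.1) were wider and 73 (19.8%, 16.1 to 24.2) narrower, and among the 238 of them whose host has an entry, 14.7% (10.8 to 19.8) were wider and 21.4% (16.7 to 27.1) narrower. Where both peaks overlapped a start, 24.3% of 288 were wider and 8.68% narrower, with a median log2 ratio of 0.093. Where neither did, 14.2% of 360 were wider and 19.2% narrower, with a median of -0.039. At gene ends, the 3983 pairs with both peaks at a start were wider in 14.3% and narrower in 10.7%. Requiring a start of the control peak alone gave 24.0% wider and 9.80% narrower.

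**Figure D5:**
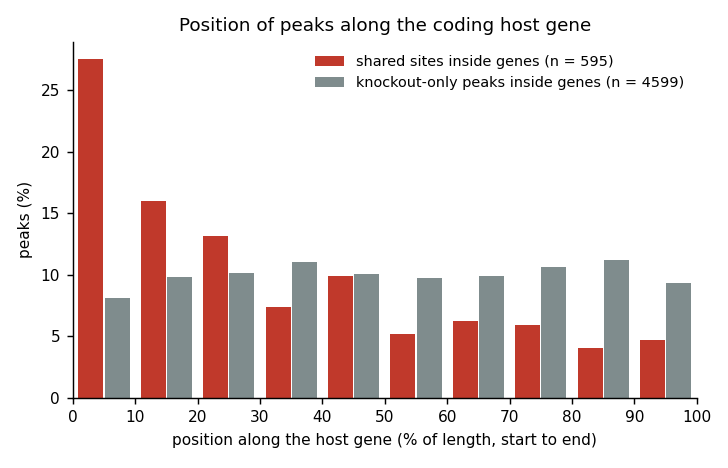
Position of peak centres along the coding host gene (horizontal, % of its length from start to end, in steps of 10) for 595 members and 4599 knockout-only peaks inside genes (vertical, % of peaks). In the first 10% lie 27.56% of the members and 8.11% of the knockout-only peaks, which are spread almost evenly.

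Members lay towards the 5′ part of their genes. Of the 595 with a known host strand, 300 (50.4%, 46.4 to 54.4) had their centre in the first 25% of the gene's length, against 23.2% of 4599 knockout-only peaks. The next 3 stretches of 25% held 23.5%, 15.0% and 11.1% of the members and 26.0%, 24.7% and 26.1% of the knockout-only peaks. The median position was 24.756% along the gene for members and 51.07% for knockout-only peaks. By class, the median position was 17.8% for the 330 members at a RefSeq start and 42.4% (quartiles 17.0 and 72.9) for the 265 others. The strand is known from the table of starts, so genes without an entry there are not in this count.

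The host genes were long. The 752 sites lay in 704 coding genes, 3.41% of the 20665 on the autosomes, with a median length of 52.0 kb against 17.5 kb for all coding genes. The part of gene length in the counts of sites was not tested. Of the members, 744 lay in a single coding gene and 8 in more than 1, and 22 also lay in the body of a long noncoding RNA gene.

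The ends of these genes had a peak less often than those of all coding genes. The rule takes no peak at a gene end, so a gene whose accessible start lies at its end cannot enter by that peak. The part of this choice in the shares, here and by class below, was not tested. Of the 704 host genes, 145 (20.6%, 17.8 to 23.7) had gene-end peaks in both lists, against 30.1% of all coding genes. A gene-end peak stood in the knockout list alone at 60 host genes (8.52%, against 10.2%) and in the control list alone at 51 (7.24%, against 4.83%). In neither list was one found at 448 (63.6%, 60.0 to 67.1), against 54.9% of all. Among genes of at least 10 kb the difference was larger, with 64.1% of 660 host genes and 47.9% of 13323 genes having none. Host genes of knockout-only peaks inside genes had none in 48.7% of 3721. With 3 kb in place of 1 kb, for the sites and the gene ends alike, the difference was smaller, with a gene-end peak in both lists at 28.6% (24.6 to 33.0) of 444 host genes and 34.1% of all coding genes.

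This differed by class of site. Of the 330 sites at a RefSeq start, 231 (70.0%, 64.8 to 74.7) lay in a gene with a gene-end peak in neither list and 58 (17.6%) in one with a peak in both. Of the 405 others, 223 (55.1%, 50.2 to 59.8) lay in a gene with none and 106 (26.2%) in one with both; for the 265 with a host in the table the share with none was 55.5% (49.5 to 61.3). Several of the 330 share a gene, and sites of 1 gene share its class.

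Znhit1 held no member, and 2 of the 15 genes listed as SRCAP and H2A.Z machinery did (13.3%, 3.74 to 37.9), against 3.41% of all coding genes. Kat5, the acetyltransferase of the TIP60 complex, had a site of 967 bp in knockout cells and 779 bp in control cells, over 2 RefSeq starts 1.61 kb inside the gene, and no gene-end peak in either list. Ino80, the ATPase of the INO80 complex, had a knockout peak of 466 bp that met a control peak of 1353 bp, and a gene-end peak in both lists.

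Chromatin remodellers with CTCF and cohesin genes held the most members for their number. Sites lay in 8 of 34 genes (23.5%, 12.4 to 40.0), against 3.41% of all coding genes, and the median length of the list's genes was 82.9 kb. They were Ino80 (also counted above with the SRCAP and H2A.Z machinery), Chd2, Chd8, Chd9, Stag1, Nipbl (2 sites), Arid1b and Smarca2 (2 sites). The Stag1 site overlapped a RefSeq start. Chd2 had 491 bp in knockout cells and 480 bp in control cells, Chd8 682 bp in knockout cells and 922 bp in control cells, and Arid1b 870 bp in knockout cells and 608 bp in control cells. Smarca2, a SWI/SNF ATPase, had 406 and 180 bp in the knockout against 380 and 242 bp in the control. Nipbl, the cohesin loader, had 266 and 251 bp in the knockout against 488 and 728 bp in the control, at sites that also lie in a second coding gene.

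Histone methyltransferases and demethylases held members in 4 of 39 genes (10.3%, 4.06 to 23.6), against 3.41% of all coding genes. The median length of the list's genes was 70.2 kb. Kdm4c, a demethylase of H3K9, had 622 bp in knockout cells and 391 bp in control cells, and Kdm2b, a CpG-binding demethylase, had 401 bp in knockout cells and 567 bp in control cells, both at a start. The H3K9 methyltransferase Prdm2 had 875 bp in knockout cells and 962 bp in control cells, and Prdm16 253 bp in knockout cells and 250 bp in control cells away from a listed start.

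Regulators of pachytene transcription held members in 3 of 24 genes (12.5%, 4.34 to 31.0), against 3.41% of all coding genes. Mga, a repressor of meiotic genes in other cells, had 862 bp in knockout cells and 635 bp in control cells, centred 32 bp from its start. Cdyl, a chromodomain protein, had 1027 bp in knockout cells and 610 bp in control cells, 81.58 kb inside the gene. Rfx3, a factor of cilium genes, had knockout peaks of 427 and 1119 bp that met 1 control peak of 1261 bp. Mga had gene-end peaks in both lists, and Cdyl and Rfx3 in neither.

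Each of the meiotic lists had at most 2 genes with a member, and the interval of each list's share includes the 3.41% of all coding genes. The piRNA pathway had 2 of 24, Tdrd7 and the helicase Mov10l1 (346 bp in knockout cells, 277 bp in control cells, at 85.1% of the gene). Meiotic recombination had 1 of 33, Rnf212b, which promotes crossovers, with 659 bp in knockout cells and 375 bp in control cells at a start 30.97 kb inside the gene. The meiotic divisions had 1 of 25, Sgo2a, and spermiogenesis 1 of 39, Cfap54, with 160 and 349 bp in the knockout against 411 and 642 bp in the control. The chromosome axis and synaptonemal complex had 0 of 18, and meiotic DNA damage signalling 0 of 19, which counting error allows to reach 17.6% and 16.8%.

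Lists of other cell types and of general genes had at most 2 genes with a member. The interval of each list's share includes the 3.41% of all coding genes. Dmrtb1, a regulator of the entry of spermatogonia into meiosis, had 427 bp in knockout cells and 532 bp in control cells (1 of 20 spermatogonial genes), and Tjp1, of tight junctions, 827 bp in knockout cells and 462 bp in control cells (1 of 15 Sertoli cell genes). Runx1 had 456 bp in knockout cells and 217 bp in control cells (1 of 40 developmental factors). All 3 lay at a start. Genes of Leydig, peritubular, endothelial and immune cells held 0 of 18. Of 11 genes known for internal or germ cell promoters, Dnmt1 alone held any. Of 27 housekeeping genes, Actb had 734 bp in knockout cells and 894 bp in control cells, and Ywhaz had 568 and 1124 bp in the knockout against 1 control peak of 1790 bp, both in genes without a gene-end peak in either list.

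Most genes held 1 site, and 1 gene held 14. Of the 704 genes, 661 had 1 member, 36 had 2, 4 had 3 and 2 had 4. Sfi1, a centrosome protein gene on chromosome 11, held 14 in 42.2 kb, with widths of 176 to 1566 bp in the knockout list. It had 25 knockout peaks and 19 control peaks in all. The locus is known to vary in copy number in the mouse, and reads of near-identical copies cannot be told apart, so its sites are uncertain; without them 738 members remained, of which 45.8% of those on covered chromosomes overlapped a start.

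Hlcs, which attaches biotin to carboxylases, held 4 sites over 66.7 kb, with 377, 708, 406 and 1191 bp in the knockout against 305, 742, 951 and 1040 bp in the control, and 2 of them at a start. Zfp978, a zinc finger gene, held 4 with 188, 364, 563 and 924 bp in the knockout against 399, 386, 1589 and 912 bp in the control. Ptprn2, a receptor phosphatase of secretory granules, held 3 of its 12 knockout peaks, with 589, 578 and 262 bp in the knockout and 384, 968 and 471 bp in the control. Abcg2, a drug transporter, held 3 of its 4, with 594, 194 and 549 bp in the knockout and 670, 268 and 883 bp in the control. In Abcg2 all 3 knockout peaks were the narrower ones. Atrnl1 and Itpkb also held 3 sites each, with a smaller summed width.

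The distance limit cut through a continuous range. The members lay a median of 4846.5 bp from the nearest gene end (quartiles 1998.8 and 12543.8), and 32 of them lay at most 100 bp beyond the limit, while 25 shared peaks inside genes fell at most 100 bp short of it. Just inside the limit were Nipbl at 1001 bp (251 bp wide in the knockout, 728 bp in the control), Rps27l at 1003 bp (521 bp in knockout cells, 770 bp in control cells) and Clasp2 at 1006 bp (692 bp in knockout cells, 150 bp in control cells). Just outside were Slc5a5 at 999 bp (290 bp in knockout cells, 624 bp in control cells), Aktip at 991 bp (901 bp in knockout cells, 779 bp in control cells) and Map6 at 989 bp (308 bp in knockout cells, 951 bp in control cells).

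By chromosome the members ran between 2.54 per 100 coding genes on chromosome 3, with 25 sites, and 4.91 on chromosome 11, with 79 sites including those of Sfi1.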

How the data were processed

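Nuclei of pachytene spermatocytes gave 4 ATAC-seq libraries, 2 per genotype, with more than 30000000 reads each per the labels' protocols. Groups came from the genotype label. The authors deposited peak lists of 3 columns with the positions of each peak, of which 2 were used, recorded for replicate 1 of each genotype; the other 2 libraries were not analysed here. Per the submitters' processing notes, the tools were MACS2 2.2.4, Picard 2.20.7, Bowtie2 2.3.4.3 and cutadapt 2.5, and the build mm10. The sources used here do not give the role of each tool, the peak threshold, any Tn5 shift, duplicate removal, the reads behind each list, or any pooling of replicates. Hence a longer or wider list can come from a deeper library. Repeated lines were counted once.

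Overlaps were computed in Python 3.11.15 (pandas 2.3.3, numpy 2.4.6, scipy 1.17.1) and drawn with matplotlib 3.10.9. Positions are 1-based, and gene ends came from a RefSeq table of GRCm38.p6. Starts, host strands and sequences came from a RefSeq table of start windows without chromosome 18, on which 17 members lie; 140 further members have a host without an entry. The planned sequence of the central 300 bp of each peak was replaced by these windows, as no genome was given. Strands were checked on overlapping windows of opposite strands, where 1863 of 1863 compared pairs were reverse complements. Classes were tested on simulated data, where 7514 of 7514 intervals were placed as made, and bedtools 2.31.1 gave the same 752 members.

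No test between genotypes was run, since there is 1 list per genotype. Members, gene lists, motifs and comparisons were chosen with earlier results of these data known. The genes named are Znhit1, the 10 widest members, the 5 highest and 5 lowest width ratios, the 5 listed most often (ties by width), the 5 genes with most members (ties by summed knockout width, predicted names skipped), the 3 peaks on each side of the limit, and every member in a gene list; 1 of the 5 highest ratios is not reported here. The 7 printed sequences, and the comparisons by RefSeq start, were chosen after their values were seen. Alternatives changed the overlap, the distance, the genes whose ends count, the peaks kept, merging within 200 bp, the list the members came from, and the position in the gene body.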

Additional observations from a re-analysis of the deposited data

How the results depend on the processing

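With 1 peak list per genotype, leaving out a replicate was not possible. No paired analysis was possible because each genotype has 1 peak list. Over 7 results and 10 alternatives, 48 of 70 values moved by less than the counting interval, or by less than 1.5 times for the number of sites. Under every alternative the median log2 ratio of widths lay between 0.000 and 0.019. Leaving out Sfi1, an alternative chosen after seeing the data, left all 7 within those limits.

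Asking for an overlap of 50% of both peaks gave 8.27% of knockout peaks inside genes as shared, 12.3% of pairs at least 1.5-fold wider in the knockout and 9.16% narrower, the wide differences being removed by that rule itself, and 48.7% at a RefSeq start. At 500 bp from gene ends 13.2% were shared and 17.7% of host genes had gene-end peaks in both lists. At 3 kb there were 479 sites, 8.77% were shared, 28.6% of host genes had such a gene-end peak (34.1% of all coding genes at 3 kb, against 28.3% at 500 bp, 16.7% for intervals listed at least 2 times and 27.9% for peaks of at least 300 bp) and 40.0% of sites lay at a start. Avoiding the ends of coding genes alone gave 12.5% shared, and taking the sites from the control list 16.6%. Keeping intervals listed at least 2 times left 264 sites, with 30.3% shared, 14.5% wider, 10.6% narrower, 9.85% of host genes with gene-end peaks in both lists and 62.6% at a start. Keeping peaks of at least 300 bp gave 19.4% shared, 10.2% narrower, 16.9% of host genes with such a gene-end peak and 52.6% at a start. The cause of these shifts was not tested. The depth behind each list is unknown, so a site missing from 1 list may have been missed there.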
